A study of Homo sapiens with 12 samples.

Results

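The mRNA levels of 7 caspases (CASP1, CASP2, CASP4, CASP6, CASP8, CASP9 and CASP10) and of CFLAR, the catalytically inactive relative of CASP8, were examined in A375 cells, a human melanoma cell line. The genes were chosen by name, as the listed caspases and CFLAR, and all 8 were among the 4918 genes analysed here. RNA sequencing had been carried out on 12 samples in 4 groups of 3. Control cells received neither agent, SB-3CT cells received the gelatinase (MMP2 and MMP9) inhibitor SB-3CT, IFN-γ cells received the cytokine, and SB-3CT+IFN-γ cells received both, each for 24 h. The labels give no dose for either agent. The Control label says none, while the treatment protocol mentions vehicle, so it is unclear whether Control cells received vehicle. All groups came from 1 cell line, and nothing in the labels says that the 3 samples of a group came from separate cultures, so the p-values measure the spread between these samples, which may be technical.

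Caspases are cysteine proteases made as inactive precursors. The inflammatory caspases are activated in multiprotein inflammasomes and cleave cytokine precursors and the pore-forming protein gasdermin D, which leads to pyroptosis. The apoptotic caspases fall into initiators, which are activated on death receptors or on the mitochondrial apoptosome, and executioners, which the initiators cleave. CFLAR (cFLIP) binds the same adaptor complex as CASP8 and CASP10 and restrains the death receptor signal. IFN-γ signals through JAK kinases, and a short palindromic element known as GAS is found in promoters of genes that it induces.

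The labels were checked first. CXCL10, an IFN-γ-induced chemokine, was listed at 0 in all but 1 of the 6 samples without IFN-γ, a Control sample under 0.1 FPKM (fragments counted per kilobase of the transcript and scaled by library depth). It lay between 78.7 and 122 FPKM in the 6 samples with IFN-γ. Of 5 melanocytic and neural crest markers, EDNRB and BCAN carried most of a summed level of 8.94 to 12.2 FPKM per sample. The others were low: DCT reached at most 0.384 and CAPN3 0.322 FPKM, and ABCB5 was under 0.1 FPKM throughout. Of 8 immune cell markers, 4 were among the analysed genes (CD3D, CD8A, CD14 and CD79A), and these summed to 0.0528 to 0.348 FPKM per sample. Relative sequencing depth, read from the smallest steps of the FPKM values, ran from 87.1% to 150.1% of the mean of the Control samples. IFN-γ sample 3 was the shallowest and IFN-γ sample 1 the deepest.

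In hg19, 5 of the 8 genes lay in 2 clusters. CASP4 (chromosome 11, 104813593 to 104840093) and CASP1 (104896124 to 104905977) shared a 92.4 kb stretch on the minus strand, next to CARD16 (104912053 to 104972158). CFLAR (chromosome 2, 201980877 to 202041410), CASP10 (202047595 to 202094151) and CASP8 (202098166 to 202226559) followed one another on the plus strand within 245.7 kb. CASP2 lay on chromosome 7 (142985308 to 143004789), CASP9 on chromosome 1 (15817327 to 15853029) and CASP6 on chromosome 4 (110609778 to 110624739). Promoter sequences were held for 6 of the 8 genes (all except CASP1 and CASP10). The GAS element, searched as TTCNNNGAA on both strands of the 250 bases before the start, was present in 1 of the 6, CASP8, and in 6.78% of 27305 promoters. The core of the interferon-stimulated response element, searched on both strands of the same window, was in 0 of the 6 and in 3.07% of all promoters. A match is a description of letters and not of binding. The CASP8 stretch around its match (chr2:202097961-202098019, plus strand, match 200 to 192 bases before the start, in capitals) and the 100 bases before the RefSeq start of CASP4 (chr11:104839302-104839401, minus strand, no match, inside the longer GENCODE span) are shown because CASP4 rose with IFN-γ, whereas CASP8 did not pass the test. Both come from the RefSeq promoter table (GRCh38.p14) and were placed in GRCh37 by a unique exact match.
CASP8: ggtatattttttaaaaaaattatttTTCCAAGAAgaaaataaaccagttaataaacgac
CASP4: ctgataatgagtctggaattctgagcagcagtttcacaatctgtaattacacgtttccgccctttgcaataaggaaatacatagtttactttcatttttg

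In the Control samples the levels spanned a wide range. CASP4, which senses cytosolic lipopolysaccharide, was highest at 21.2 FPKM ± 1.00 (SD, n = 3). CASP8 (7.96 ± 0.445) and CASP2 (7.20 ± 0.0999) came next. CASP9 (5.79 ± 0.370) and CASP6 (5.32 ± 0.581) followed, and the samples of these neighbours overlapped. CFLAR stood at 2.64 ± 0.377, CASP10 at 0.642 ± 0.204 and CASP1 at 0.0415 ± 0.0459 FPKM. CASP4 remained the highest of the 8 in every group. CASP1 moved from the last place in Control and SB-3CT cells to the second by mean in both groups with IFN-γ, where its samples overlapped those of CASP8.

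**Figure D1:**
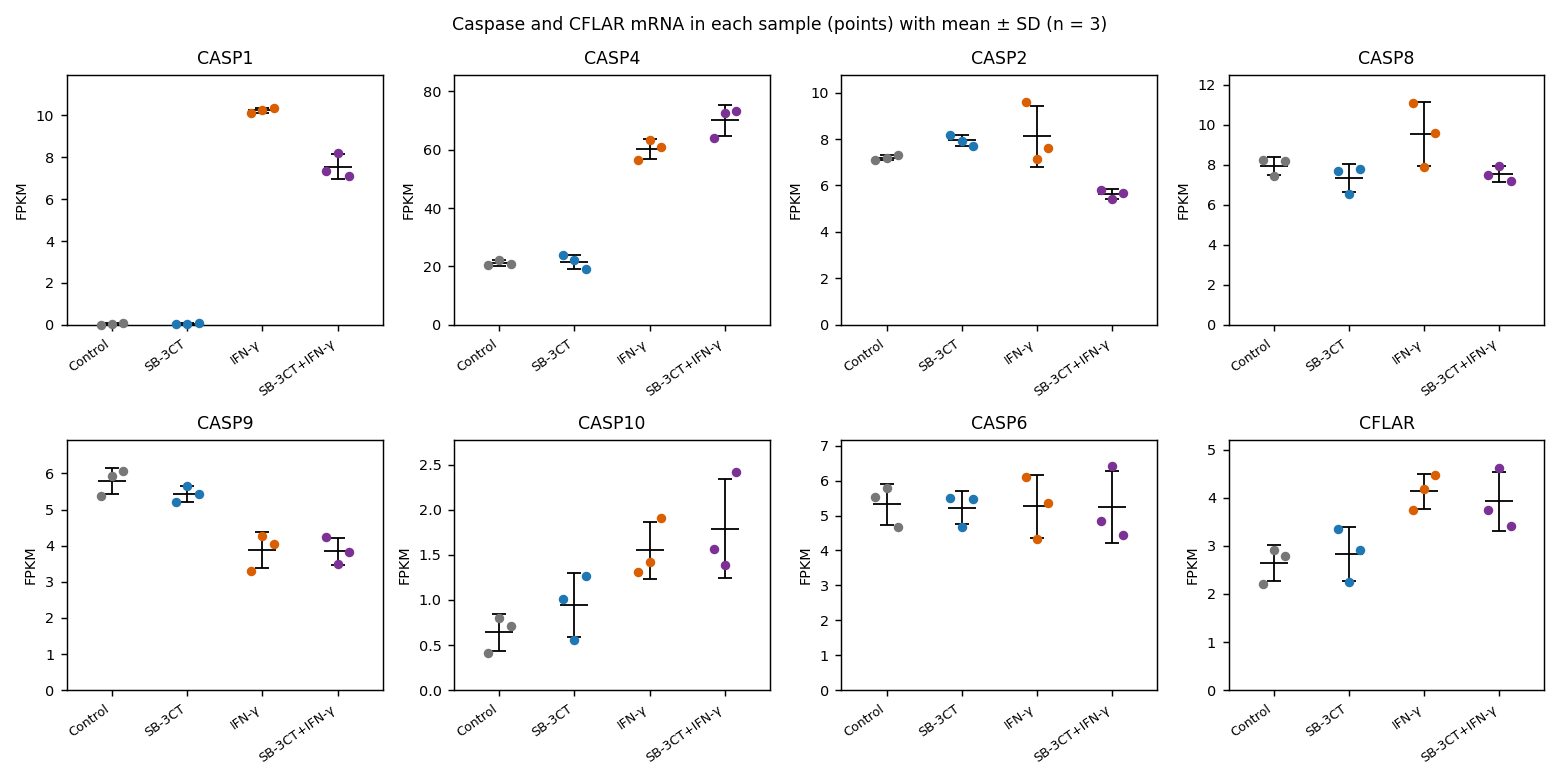
Level (FPKM, linear axis from 0) of each of the 8 mRNAs in the 12 samples; points are samples, horizontal marks the mean and bars the SD of 3 samples. CASP1 and CASP4 stand far above the other groups in the 6 samples with IFN-γ, CASP9 lies lower in those 6, and CASP2 is lowest in the 3 SB-3CT+IFN-γ samples.

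IFN-γ was compared with Control to ask which of these genes respond to the cytokine alone. Of the 8 genes, 4 were higher (CASP1, CASP4, CASP10 and CFLAR) and 1 was lower (CASP9) at an adjusted p under 0.05 (limma). Among all 4918 genes 19.5% passed, 8.46% higher and 11.0% lower. The median log2 difference was 0.36 over the 8 genes and -0.02 over all genes. In bulk RNA, a change in every cell and a change in some of the cells cannot be told apart.

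CASP1, the protease that matures interleukin-1β, was nearly absent without IFN-γ. The Control samples read 0, 0.0337 and 0.0907 FPKM, and the IFN-γ samples 10.1, 10.3 and 10.3 FPKM. The 2 groups were separated by a log2(FPKM + 1) difference of 3.43 (SE 0.07, adjusted p = 1.57e-06). In the 6 samples without IFN-γ, CASP1 values were whole multiples of a smallest step to within 0.00460 of a step, which did not hold for the higher values with IFN-γ. Counted in these steps, taken as fragments and rounded per sample, the 3 Control samples held 4 and the 3 IFN-γ samples 1125, a depth-corrected ratio of 237 (95% interval 92.4 to 872, counting error only). In the presence of SB-3CT the same comparison gave 5 against 795 steps and a ratio of 160 (68.4 to 495). On the log2 scale that difference was 3.03 (SE 0.08, adjusted p = 3.69e-06). CASP1 shares a nearly identical N-terminal CARD-coding stretch with CARD16, so the split of reads between the pair is uncertain.

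CASP4 rose from an already high level. Its Control samples read 20.4, 22.3 and 20.9 FPKM and its IFN-γ samples 56.5, 63.3 and 61.0 FPKM, which is 2.84-fold (log2 difference 1.46, SE 0.06, adjusted p = 2.13e-05). With SB-3CT the levels were 23.8, 22.1 and 19.0 FPKM without IFN-γ and 64.0, 72.6 and 73.3 FPKM with it, which is 3.23-fold (log2 difference 1.65, SE 0.09, adjusted p = 0.000167). The lowest sample with IFN-γ thus lay well above the highest without it. The CASP1 and CASP4 calls held in each of 14 alternatives for both comparisons.

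Of the 3 genes of the chromosome 2 cluster, CASP10 and CFLAR passed the test and CASP8 did not, and their responses were not tested against each other. CASP10, an initiator close to CASP8, read 0.413, 0.802 and 0.711 FPKM in Control and 1.31, 1.42 and 1.91 FPKM in IFN-γ cells (2.41-fold, log2 difference 0.63, SE 0.13, adjusted p = 0.0177). CFLAR read 2.21, 2.92 and 2.78 FPKM in Control and 3.75, 4.18 and 4.47 FPKM in IFN-γ cells (1.57-fold, log2 difference 0.50, SE 0.10, adjusted p = 0.0202). CASP8, the death receptor initiator, read 8.25, 7.44 and 8.18 FPKM in Control and 11.1, 7.91 and 9.60 FPKM in IFN-γ cells. The CASP8 groups overlapped, and its log2 difference of 0.22 (95% interval -0.06 to 0.51, adjusted p = 0.246) did not pass the test, although it did without IFN-γ sample 2 (0.34, adjusted p = 0.0494). The CASP10 call was lost without Control sample 1 (adjusted p = 0.0516) or 3 (0.0574). The CFLAR call was lost without Control sample 1 (0.0535) or 3 (0.0612), without IFN-γ sample 2 (0.0531) or 3 (0.0778), and when the dependence of each sample on transcript length was removed, called the length trend below (log2 difference 0.40, adjusted p = 0.0851).

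With SB-3CT present, neither CASP10 nor CFLAR passed the test for IFN-γ, although their groups did not overlap, as in 9.84% of all genes in this direction. CASP10 stood at 1.01, 0.558 and 1.27 FPKM in SB-3CT cells and 1.56, 1.39 and 2.42 FPKM in SB-3CT+IFN-γ cells (log2 difference 0.52, SE 0.19, adjusted p = 0.0722). CFLAR stood at 3.34, 2.24 and 2.91 FPKM and at 3.75, 4.61 and 3.42 FPKM (log2 difference 0.37, SE 0.14, adjusted p = 0.0862). Each of them passed in 5 of 8 other settings, among them scaling of the samples by their median ratio (CASP10 0.68, adjusted p = 0.0498, and CFLAR 0.57, adjusted p = 0.0253). CASP8 differed by 0.04 (adjusted p = 0.747) and passed only with that scaling (0.27, adjusted p = 0.0369).

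CASP9, the initiator activated on the apoptosome, was the one gene of the 8 that fell with IFN-γ in both comparisons. Control samples read 5.37, 5.93 and 6.07 FPKM and IFN-γ samples 3.31, 4.27 and 4.04 FPKM, a ratio of 0.669 (log2 difference -0.48, SE 0.10, adjusted p = 0.0179). SB-3CT samples read 5.22, 5.65 and 5.43 FPKM and SB-3CT+IFN-γ samples 4.24, 3.50 and 3.81 FPKM, a ratio of 0.708 (log2 difference -0.41, SE 0.08, adjusted p = 0.00814). All 6 samples with IFN-γ therefore lay below all 6 without it. The first call was lost without Control sample 2 (adjusted p = 0.0699) or 3 (0.0750) or without IFN-γ sample 3 (0.0542). The second was lost with median-ratio scaling (log2 difference -0.20, adjusted p = 0.143), quantile normalization (-0.22, 0.130) and removal of the length trend (-0.24, 0.0709).

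CASP2 and CASP6 did not pass the test for IFN-γ alone. CASP2, which is activated by DNA damage and spindle defects, read 7.10, 7.20 and 7.30 FPKM in Control and 9.59, 7.15 and 7.60 FPKM in IFN-γ cells (log2 difference 0.14, adjusted p = 0.402). CASP6, an executioner that cleaves nuclear lamins, had means of 5.32 ± 0.581, 5.22 ± 0.479, 5.26 ± 0.896 and 5.24 ± 1.03 FPKM in Control, SB-3CT, IFN-γ and SB-3CT+IFN-γ cells. It passed in none of the 4 comparisons, and all its group ranges overlapped.

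Taking the samples with and without IFN-γ together, 5 of the 8 genes separated completely, 6 samples against 6. CASP1, CASP4, CASP10 and CFLAR were above, as were 4.17% of all genes, and CASP9 was below, as were 8.28%. For CASP10 the margin was narrow, with 1.27 FPKM as the highest value without IFN-γ and 1.31 as the lowest with it. For CFLAR these values were 3.34 and 3.42 FPKM.

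In SB-3CT+IFN-γ against SB-3CT cells, 4 of the 8 genes passed (limma), CASP1 and CASP4 higher and CASP2 and CASP9 lower. Over all genes 40.5% passed, 7.85% higher and 32.7% lower. CASP2 read 8.18, 7.93 and 7.72 FPKM in SB-3CT cells and 5.82, 5.40 and 5.69 FPKM in SB-3CT+IFN-γ cells, a ratio of 0.710 (log2 difference -0.43, SE 0.05, adjusted p = 0.00200). Every SB-3CT+IFN-γ sample was below the other 9 samples for this gene. The share of all genes with that pattern was not counted. The CASP2 call held in all 14 alternatives for this comparison, but its size did not: it was -0.20 with median-ratio scaling (adjusted p = 0.0324), -0.23 after quantile normalization (0.0231) and -0.22 with the length trend removed (0.0229). The median log2 difference over genes of at least 1 FPKM was -0.21 here as deposited.

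**Figure D2:**
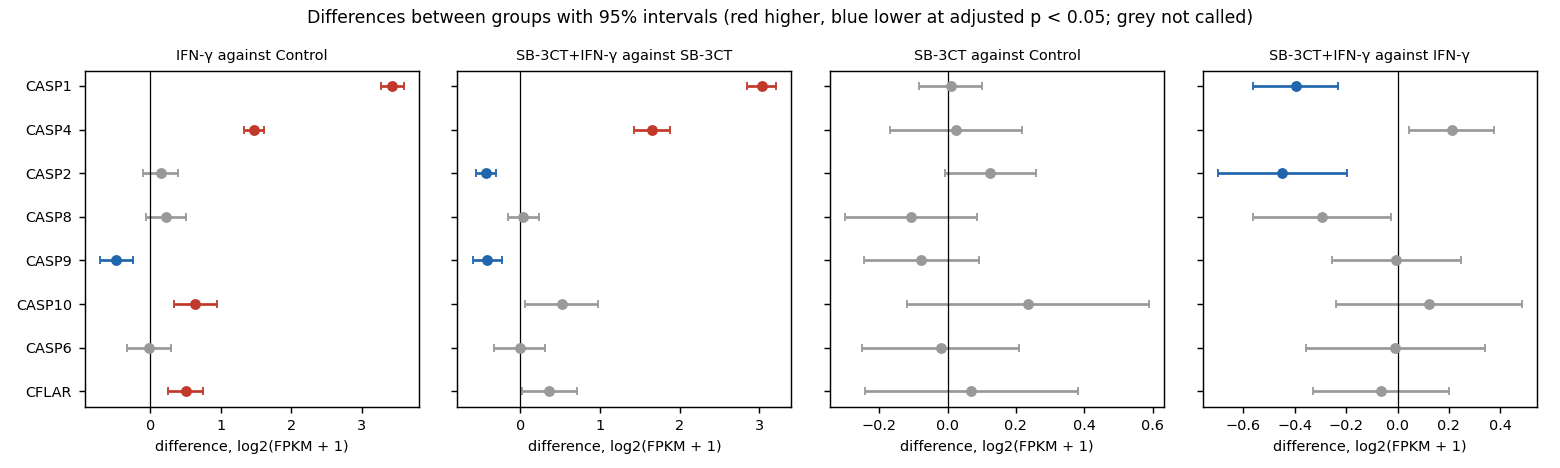
Differences in log2(FPKM + 1) for the 8 genes in 4 comparisons, with 95% intervals from limma; red and blue mark genes higher and lower at an adjusted p under 0.05, grey those that did not pass, and the horizontal scales differ between panels. The IFN-γ panels are led by CASP1 (3.43 and 3.03) and CASP4 (1.46 and 1.65), and the SB-3CT against Control panel holds 0 genes that passed.

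The contrast between inflammatory and apoptotic caspases was then expressed within each sample, which removes any factor common to a whole library. CASP1 and CASP4 made up 44.1% ± 0.938 (SD, n = 3) of the summed FPKM of the 7 caspases in Control and 44.6% ± 3.23 in SB-3CT cells. Their share was 71.3% ± 3.32 in IFN-γ and 76.3% ± 1.28 in SB-3CT+IFN-γ cells, with no overlap between samples with and without IFN-γ (40.9% to 46.6% against 67.9% to 77.3%). The inflammatory sum was 21.2 ± 1.01, 21.7 ± 2.39, 70.5 ± 3.52 and 77.5 ± 5.32 FPKM in the order Control, SB-3CT, IFN-γ and SB-3CT+IFN-γ. The sum of the 5 apoptotic caspases (CASP2, CASP6, CASP8, CASP9 and CASP10) was 26.9 ± 0.254, 26.9 ± 1.34, 28.3 ± 3.19 and 24.1 ± 0.535 FPKM in the same order. The larger part of the inflammatory sum was CASP4 in every sample.

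The make-up of the inflammatory pair also differed between the 2 groups with IFN-γ. The ratio of CASP1 to CASP4 was 0.170 ± 0.00852 in IFN-γ and 0.108 ± 0.00993 in SB-3CT+IFN-γ cells (0.162 to 0.179 against 0.0968 to 0.115). The ratio of CASP1 to CARD16 was 1.78 ± 0.280 and 1.04 ± 0.191 in these groups, with the split of reads between the pair uncertain. Their annotated transcripts differ in length (1996 and 532 bases), so a dependence on length would not cancel in this ratio. Without IFN-γ, CARD16 was at most 0.673 FPKM in any sample, and its ratio is not given there. CFLAR relative to CASP8 was 0.333 ± 0.0625 in Control, 0.384 ± 0.0456 in SB-3CT, 0.444 ± 0.0976 in IFN-γ and 0.519 ± 0.0553 in SB-3CT+IFN-γ cells. Neighbouring groups in this order overlapped, whereas Control and SB-3CT+IFN-γ cells did not (0.268 to 0.392 against 0.477 to 0.582). These 2 groups differ in both agents, and the ratio was not tested between them. The annotated transcripts of CFLAR and CASP8 also differ in length (14612 and 2659 bases), so a dependence on length would not cancel here either.

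**Figure D3:**
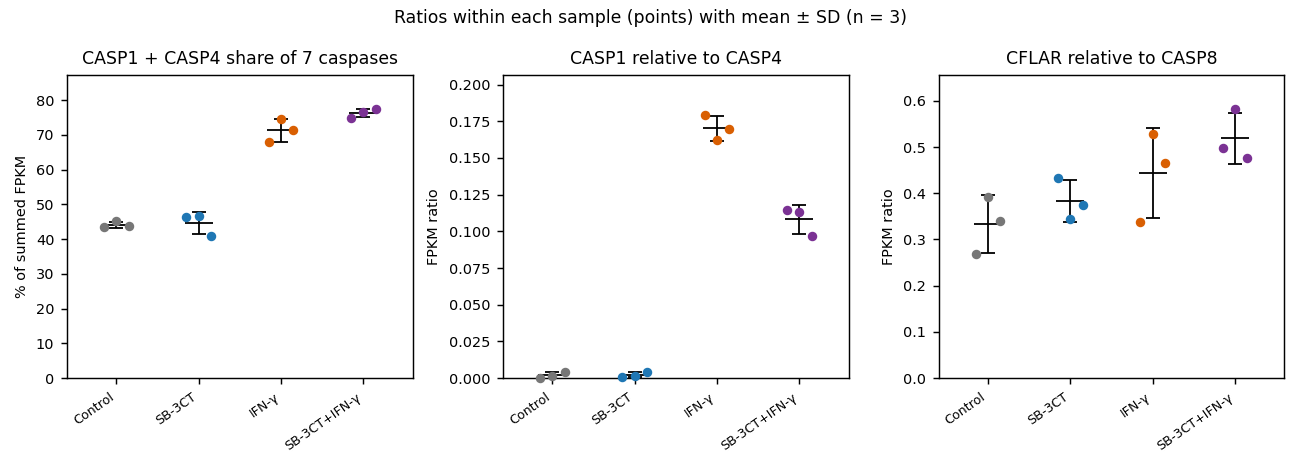
Within-sample ratios in the 4 groups, with points for samples and mean ± SD of 3; the left axis is the percent of the summed FPKM of 7 caspases and the other axes are FPKM ratios, all from 0. The inflammatory share lies between 40.9% and 46.6% without IFN-γ and between 67.9% and 77.3% with it, and the CASP1 to CASP4 ratio is lower in SB-3CT+IFN-γ than in IFN-γ cells.

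SB-3CT against Control asked what the inhibitor did in the absence of IFN-γ. By limma 0 of the 8 genes passed at an adjusted p under 0.05, and 0 had an unadjusted p under 0.05, where 12.2% of all genes passed after adjustment, 5.37% higher and 6.87% lower. The largest differences were 0.23 for CASP10 (SE 0.15, adjusted p = 0.347) and 0.13 for CASP2 (SE 0.06, adjusted p = 0.184) on the log2 scale. The 95% intervals of the 8 genes together reached from -0.30 to 0.59. CASP2 was higher in all 3 SB-3CT samples than in any Control sample, as were 14.2% of all genes, and it passed after removal of the length trend (0.19, adjusted p = 0.0410). CASP1 remained at or under 0.0907 FPKM in all 6 of these samples.

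SB-3CT+IFN-γ against IFN-γ asked what the inhibitor changed in stimulated cells. CASP1 and CASP2 were lower and 0 of the 8 genes were higher, where 37.9% of all genes passed, 6.41% higher and 31.5% lower. Over the 3177 genes with a mean of at least 1 FPKM the median log2 difference was -0.20 as deposited and 0.02 after median-ratio scaling, so the values below are read against that shift. CASP1 went from 10.1, 10.3 and 10.3 FPKM to 7.34, 8.22 and 7.09 FPKM (ratio 0.738, log2 difference -0.40, SE 0.07, adjusted p = 0.00520). CASP2 went from 9.59, 7.15 and 7.60 FPKM to 5.82, 5.40 and 5.69 FPKM (ratio 0.695, log2 difference -0.45, SE 0.11, adjusted p = 0.0146). CASP4 went the other way, from a mean of 60.2 ± 3.43 to 69.97 ± 5.14 FPKM with no overlap, as did 9.35% of all genes (1.16-fold), and missed the threshold (log2 difference 0.21, SE 0.07, adjusted p = 0.0501).

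These calls depended on the scale. With median-ratio scaling CASP1 differed by -0.17 (adjusted p = 0.114) and CASP2 by -0.23 (0.0784), and neither passed, whereas CASP4 did, at 0.46 (0.00995). After quantile normalization 0 of the 8 passed, with CASP1 at -0.13 (0.198), CASP2 at -0.16 (0.235) and CASP4 at 0.23 (0.0565). With the length trend removed CASP1 passed (-0.30, adjusted p = 0.0168) and CASP2 did not (-0.12, 0.285). CASP4 lay above both CASP1 and CASP2 in log2 difference on all 4 scales. CASP1 lay above CASP2 except with the length trend removed, where it lay below. Without SB-3CT+IFN-γ sample 2 (adjusted p = 0.0625) or 3 (0.0569) the CASP2 call was lost, and without SB-3CT+IFN-γ sample 1 CASP4 passed (0.27, 0.0291). CASP8 differed by -0.29 (adjusted p = 0.0822) with overlapping groups, and passed without IFN-γ sample 2 (-0.41, 0.0151) and in 2 of 8 other settings. CASP4 passed in 4 of those 8. CASP6, CASP9, CASP10 and CFLAR differed by -0.01, -0.00, 0.12 and -0.06 and did not pass.

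**Figure D4:**
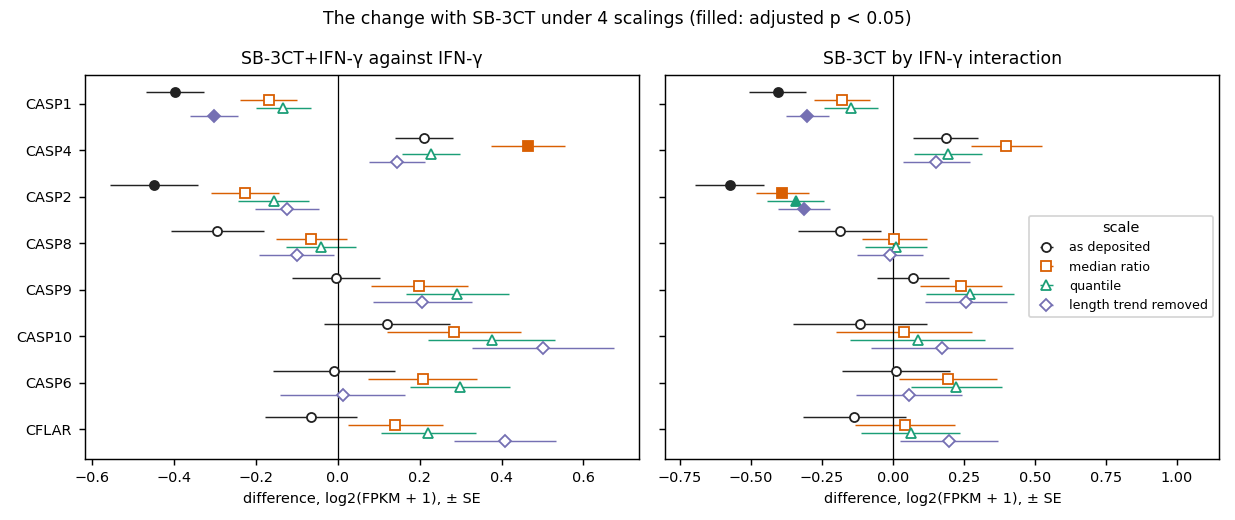
Log2(FPKM + 1) differences ± SE of the 8 genes for SB-3CT+IFN-γ against IFN-γ (left) and for the interaction (right) as deposited and on 3 other scales; filled symbols passed at an adjusted p under 0.05. CASP1 and CASP2 lie below 0 on every scale but are filled only on some, and CASP2 is filled on all 4 scales in the right panel.

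The difference between the IFN-γ responses with and without SB-3CT was tested as an interaction over the 12 samples. CASP2 passed (log2 difference -0.57, SE 0.12, adjusted p = 0.00913), and so did CASP1 (-0.41, SE 0.10, adjusted p = 0.0166), while 22.3% of all genes passed, 4.74% higher and 17.6% lower. The CASP2 call held in all 7 other settings and without each of the 12 samples in turn, with a smaller difference on the other scales (-0.39 with median-ratio scaling, -0.34 after quantile normalization and -0.31 with the length trend removed). CASP1 did not pass with median-ratio scaling (-0.18, adjusted p = 0.275), quantile normalization (-0.15, 0.370) or a constant of 0.1 in place of 1 before the logarithm (-0.53, 0.245). The interaction for CASP4 was 0.19 (SE 0.11, adjusted p = 0.266), and the remaining 5 genes did not pass either.

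Around the inflammatory caspases, 6 of 8 listed inflammasome and CARD genes were analysed. With IFN-γ alone 3 rose (AIM2, CARD6 and CARD16) and 0 fell on each of the 4 scales, beside 8.46% and 11.0% of all genes as deposited. The CARD6 call (0.37, adjusted p = 0.0243) was lost without any one Control sample or without IFN-γ sample 3 (0.0734 to 0.0849). AIM2, a cytosolic DNA sensor that recruits CASP1, had means of 5.88 ± 0.587 FPKM in Control, 3.23 ± 0.0895 in SB-3CT, 52.9 ± 2.41 in IFN-γ and 43.4 ± 3.59 in SB-3CT+IFN-γ cells. Its log2 difference was 2.97 for IFN-γ against Control (adjusted p = 3.59e-06) and -0.70 for SB-3CT against Control (adjusted p = 0.00608). CARD16, which encodes a CARD-only relative of CASP1, had 0.422 ± 0.225, 0.174 ± 0.241, 5.84 ± 0.825 and 7.40 ± 1.08 FPKM in the same order. CARD16 rose by 2.27 with IFN-γ alone (adjusted p = 0.000205) and by 2.85 with SB-3CT present (adjusted p = 0.000179). In SB-3CT+IFN-γ against SB-3CT 2 genes rose and 2 fell (DPP8 and DPP9, proteases that restrain CARD8 and NLRP1), beside 7.85% and 32.7% of all genes. With median-ratio scaling 3 rose and 0 fell, beside 675 and 504 of all 4918 genes. The DPP8 call (-0.29, adjusted p = 0.0330) was also lost on leaving out any one sample except SB-3CT sample 2 (adjusted p 0.0583 to 0.0880). In SB-3CT+IFN-γ against IFN-γ cells 0 of the 6 genes rose and 4 fell as deposited (6.41% and 31.5% of all genes). With median-ratio scaling 2 rose and 1 fell, beside 811 and 760 of all 4918 genes. In SB-3CT against Control 1 rose and 1 fell on both scales, beside 5.37% and 6.87% of all genes as deposited.

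**Figure D5:**
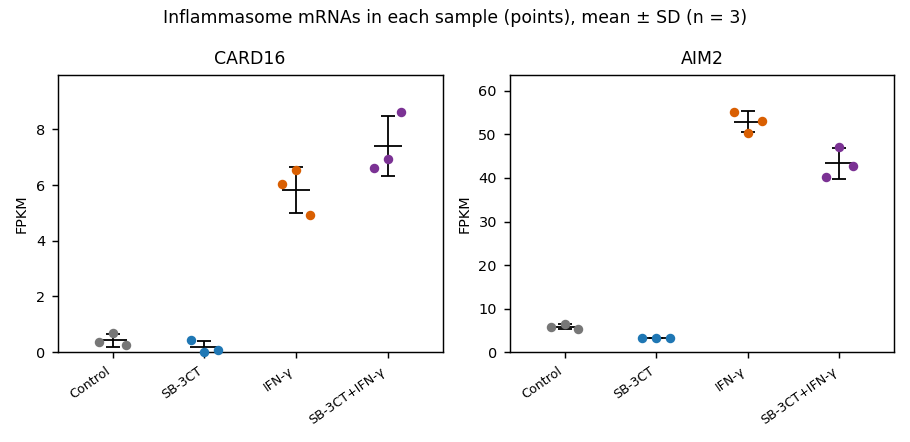
Level (FPKM, linear axes from 0) of CARD16 and AIM2 in each sample, with the mean and SD of 3. Both are higher in all 6 samples with IFN-γ than in the other 6.

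Of 10 death receptor signalling genes, 3 rose and 2 fell with IFN-γ alone, beside 8.46% and 11.0% of all genes. With median-ratio scaling 5 rose and 1 fell, beside 596 and 500 of all 4918 genes. After quantile normalization 5 rose and 2 fell, beside 507 and 658 of all genes. CYLD, a deubiquitinase that favours death signalling from the TNF receptor, went from 1.71 ± 0.119 to 4.03 ± 0.664 FPKM (2.36-fold, adjusted p = 0.00326). BIRC3 (cIAP2) went from 0.739 ± 0.0135 to 1.88 ± 0.286 FPKM (2.54-fold, adjusted p = 0.00254). The third, CASP8AP2, rose by 0.35 on the log2 scale (adjusted p = 0.0216), a call lost on leaving out any one sample except IFN-γ sample 2 (adjusted p 0.0571 to 0.0782). FADD, the adaptor of CASP8, did not pass in any comparison as deposited (limma). For IFN-γ against Control (0.16, adjusted p = 0.0724) it passed with median-ratio scaling (0.0243), quantile normalization (0.0279) and the length trend removed (0.0418). For SB-3CT+IFN-γ against SB-3CT it passed with median-ratio scaling (0.26, adjusted p = 0.0392). With SB-3CT present, IFN-γ gave 1 higher and 3 lower as deposited (7.85% and 32.7% of all genes). With median-ratio scaling 4 rose and 0 fell, beside 675 and 504 of all 4918 genes. In SB-3CT+IFN-γ against IFN-γ cells 2 of the 10 rose and 4 fell as deposited (6.41% and 31.5% of all genes). After that scaling 3 rose and 3 fell, beside 811 and 760 of all 4918 genes. In SB-3CT against Control 0 of the 10 passed by limma on each of the 4 scales, and 0 had an unadjusted p under 0.05. As deposited, 12.2% of all genes passed there.

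Of 13 apoptosome and execution genes, 0 rose and 1 fell (CYCS) with IFN-γ alone, beside 8.46% and 11.0% of all genes. With median-ratio scaling the counts were 2 and 1, beside 596 and 500 of all 4918 genes. IFN-γ in the presence of SB-3CT gave 0 higher and 6 lower as deposited, where 7.85% and 32.7% of all genes passed. With median-ratio scaling it gave 1 and 1, beside 675 and 504 of all 4918 genes. In SB-3CT+IFN-γ against IFN-γ cells 2 rose and 5 fell as deposited, where 6.41% and 31.5% of all genes passed. With that scaling 4 rose and 3 fell, beside 811 and 760 of all 4918 genes. In SB-3CT against Control 1 rose (BIRC5) and 1 fell (CAAP1), beside 5.37% and 6.87% of all genes. Both calls were lost on leaving out any one sample except SB-3CT sample 1 (adjusted p 0.0735 to 0.121). APAF1, the scaffold that activates CASP9, had 2.83 ± 0.0763 FPKM in IFN-γ and 1.51 ± 0.103 FPKM in SB-3CT+IFN-γ cells (log2 difference -0.61, adjusted p = 0.00236). BIRC6, a large inhibitor of apoptosis protein, differed by -0.60 (adjusted p = 0.00511). Removal of the length trend left APAF1 at -0.19 (adjusted p = 0.0506) and BIRC6 at -0.13 (0.146). These falls are to be read against the median shift of -0.20 in that comparison. CYCS went the other way, higher in SB-3CT+IFN-γ than in IFN-γ cells (log2 difference 0.37, adjusted p = 0.00444). That CYCS call held in all 8 other settings and on leaving out each of the 6 samples.

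The genes whose levels followed each member most closely over the 12 samples were found by Pearson's r of log2(FPKM + 1), among 3176 genes with a mean of at least 1 FPKM. The points share libraries and 4 treatment groups, so r is a description. CASP1 was closest to BST2, C1R and A2M, each with an r of 0.998. CASP4 was closest to CLEC2B, BCL2A1 and CXCL10, each at 0.994. CASP2 followed CTPS1 (0.983), C2CD3 (0.969) and AMIGO2 (0.953). The closest to CASP9 were DANCR (0.939), C12orf73 (0.936) and CKB (0.927). For CASP8, CAMKK2 (0.904) led, for CASP10 CT83 (0.874), for CFLAR C19orf66 (0.869) and for CASP6 CA5BP1 (0.707). Among the members themselves, r was 0.976 between CASP1 and CASP4 and -0.924 between CASP1 and CASP9.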

How the data were processed

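Per the labels, RNA from A375 cells was aligned to hg19 with HISAT2 2.0.5 and quantified with StringTie 1.3.3. The annotation is not given in the sources used here. The deposited values were taken to be on the log2 scale by the authors, as log2(FPKM + 1): they reach 12.2 and sum to 121928 to 129692 FPKM per sample when converted back. Totals of reads are not part of these values, so relative depth was read from the smallest FPKM steps. All 12 columns were matched to samples by name, with 0 unused. The 4918 genes analysed here run alphabetically up to FAM46B.

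Differences between groups of 3 were fitted in R 4.3.3 by limma 3.58.1 (eBayes with a trend, unpaired, 6 samples a fit; 12 for the interaction) on the values as deposited, with Benjamini-Hochberg adjustment over 4918 genes and a threshold of 0.05. Scripts were tested on simulated data. An exact permutation test of 3 against 3 samples cannot give a two-sided p under 0.1. Fold values are ratios of mean FPKM, and log2 differences understate changes of low genes. Each sentence that names a difference takes the first group minus the second. IFN-γ against Control shares no sample with SB-3CT+IFN-γ against SB-3CT, nor SB-3CT against Control with SB-3CT+IFN-γ against IFN-γ. Every other pair of these comparisons shares 3 samples, so their values are only set side by side.

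Members, pathway lists and naming rule were chosen with earlier results of these data known. One of the pathway lists is not reported here. From each list, up to 4 genes with the largest log2 changes among those passing in any comparison could be named. CARD6, CYCS, FADD, BIRC5, CAAP1 and the relations among members were added after their values were seen. Likeness lists hold 3 genes a member. Gene positions and transcript lengths came from GENCODE release 44 mapped to GRCh37 (4458 symbols matched directly, 417 through an older symbol, 98.5% with a length), and promoters from RefSeq. Alternatives were median-ratio scaling, quantile normalization, a constant of 0.1, a minimum mean of 1 FPKM, 1 fit of all groups, a replicate block, eBayes without a trend, removal of the length trend, and each sample left out.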

Additional observations from a re-analysis of the deposited data

Results flagged for a closer look

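The response to IFN-γ differed with SB-3CT for 2 of the 8 genes, by the interaction over the 12 samples (limma). Of all genes 22.3% passed. It also differed for 10 of the other genes named here. Most of those were named for their changes in these data or after their values were seen. Their count can therefore not be set against that share. All values are log2 differences of the IFN-γ response with SB-3CT minus that without it. CASP1 differed by -0.41 (adjusted p = 0.0166) and CASP2 by -0.57 (0.00913), as described above. CASP2 was the one of these 2 that also passed on every other scale tried.

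Among the pathway genes, the death receptor signalling genes CYLD and CASP8AP2 differed by -0.50 (adjusted p = 0.0287) and -0.40 (0.0313). ACIN1, a caspase substrate of chromatin condensation, differed by -0.49 (0.0173), AIFM1, the mitochondrial apoptosis-inducing factor, by -0.36 (0.0181) and APAF1 by -0.35 (0.0357). DPP9 differed by -0.47 (0.00571). BIRC5 differed by -0.26 (0.0463). AIM2, CYCS and CXCL10 had more positive responses with SB-3CT, by 0.41 (0.0171), 0.42 (0.00552) and 0.47 (0.0159), AIM2 from a lower level without IFN-γ (3.23 against 5.88 FPKM). With median-ratio scaling, CASP1, CYLD, CASP8AP2, ACIN1, AIFM1, APAF1 and BIRC5 no longer passed, whereas CASP2, DPP9, AIM2, CYCS and CXCL10 did. Of these last 5, DPP9 (-0.20, adjusted p = 0.0618) and CXCL10 (0.36, 0.0504) did not pass with the length trend removed. On leaving out 1 of the 12 samples in turn, CYLD passed in 4 cases, CASP8AP2 in 5, APAF1 in 3 and BIRC5 in 3.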

How the results depend on the processing

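Of 40 results for single members, 26 kept their side of the threshold in every alternative (10 of them also their sign), 7 lost a call and 7 gained one in at least 1. No called value changed sign. With median-ratio scaling the members called were 1 (SB-3CT+IFN-γ against IFN-γ) and 1 (interaction) in place of 2 and 2; with quantile normalization 0 and 1; with a constant of 0.1 the interaction gave 1. In SB-3CT+IFN-γ against IFN-γ the filter on low values gave 4 and the length trend 1, and in SB-3CT against Control the length trend gave 1 in place of 0. Over all genes, median-ratio scaling gave 1179 calls (675 higher, 504 lower) in place of 1994 (386, 1608) for SB-3CT+IFN-γ against SB-3CT, and 641 (384, 257) in place of 1099 (233, 866) for the interaction, where quantile normalization gave 640 (295, 345). For SB-3CT+IFN-γ against IFN-γ the split was 811 higher and 760 lower with median-ratio scaling and 880 and 518 with the length trend removed, against 315 and 1547 as deposited. For SB-3CT against Control the filter gave 907 and the replicate block 259 in place of 602. For IFN-γ against Control median-ratio scaling gave 596 higher and 500 lower in place of 416 and 542. DPP9 turned from -0.21 in SB-3CT+IFN-γ against IFN-γ to 0.042 with median-ratio scaling and 0.13 with the length trend removed, and BIRC5 from -0.03 to 0.22 with median-ratio scaling. The cause of these shifts was not tested.

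On leaving out 1 sample, members called ranged from 2 (without Control sample 3) to 5 for IFN-γ against Control, 4 to 4 for SB-3CT+IFN-γ against SB-3CT, 0 to 0 for SB-3CT against Control, 1 to 3 for SB-3CT+IFN-γ against IFN-γ and 2 to 2 for the interaction. All genes called ranged from 562 to 982, 1507 to 1780, 73 to 912, 1230 to 1977 and 678 to 1450 in that order. The 73 were found without Control sample 2. Same-numbered samples did not deviate together (correlations -0.39 to 0.17). Deviations of single libraries also enter these correlations, so they cannot show whether same-numbered samples were prepared together. With the replicate block the members called were 5, 5, 0, 3 and 2.

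Depth limits CASP1 without IFN-γ (9 steps over 6 samples) and the low genes CASP10 and CARD16. Of 90 results for the other named genes, 40 kept their side throughout, and 22 of these also their sign.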
